A study of Bos taurus with 16 samples.

Results

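Stretches of the bovine genome in which measured cytosines lay close together, carried high methylation and had no gene assigned to them were examined in the endometrium of postpartum dairy cows. A cytosine position, called a site here, was taken when it was on an autosome, had an empty gene field in the deposited table, had at least 15 other measured sites within 200 bp on either side, and had a mean methylation level over the 16 libraries from 60% to under 95%. A CpG island on chromosome 21 (120 sites) was left out. These criteria gave 1296 of the 199395 measured sites, and sites no more than 400 bp apart were joined into 128 clusters on all 29 autosomes. The sites were thus chosen by their measured level over all libraries and by the density of measured sites, so their high methylation is a description and not a result.

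The samples were endometrial cells taken by cytobrush from multiparous Holstein-Friesian cows. Cows received a control diet (CON) or the control diet with daily rumen-protected methionine (MET) from day 12 after calving, were inseminated at heat between days 50 and 64, and were brushed 4 to 8 h after insemination. Pregnancy diagnosed later split each diet group, so that CON_noP, CON_P, MET_noP and MET_P held 4 libraries each, with P for cows that became pregnant and noP for cows that did not. All cows were thus at the same stage, and the outcome was not known when the cells were taken. DNA was isolated from more brush samples than there are libraries, and the sources used here do not give the number of cows behind a library. The p-values below therefore measure the spread between libraries, which are called by the number in the column header. A brush collects several cell types, and a different share of a cell type and a different methylation level within cells cannot be told apart. The table holds methylation only, so the tissue could not be checked against marker genes.

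In mammals, methyl groups are added to the cytosine of CpG dinucleotides, and methionine feeds the pathway that makes S-adenosylmethionine, the methyl donor of this reaction. Most CpGs outside promoters are methylated, whereas dense groups of CpGs (CpG islands) at active promoters are usually free of methylation. Dense CpGs that are methylated are typical of repeats, of satellite DNA around centromeres and of silenced islands. Bovine autosomes are acrocentric, with the centromere at the end where the coordinates start. Reduced representation bisulfite sequencing (RRBS) cuts DNA with MspI at CCGG and reads short fragments, so neighbouring sites of a cluster are often read in the same molecules and are not independent measurements.

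Dense sites without a gene covered the whole range of methylation. There were 4927 such autosomal sites, counted with the chromosome 21 island. Of these, 26.3% were the cluster sites, 24.9% were under 20%, 37.5% were from 20% to under 60% and 9.97% were at 95% or more. The rest were sites of that island that met the level criterion. The site just inside the lower bound had a mean of 60.10% (chromosome 27, position 6223947) and the site just outside 59.97% (chromosome 14, position 1887175). At the upper bound, the values were 94.99% inside (chromosome 6, position 116917970) and 95.01% outside (chromosome 5, position 119849810). There were 226 sites at the density limit of 15 neighbours, with a mean of 82.8%, and 182 sites with 14 neighbours, with a mean of 80.3%.

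The clusters were short. They held 1 to 80 sites with a median of 8, and the 98 clusters with at least 3 sites spanned 4 to 650 bp with a median of 114.5 bp. The 54 clusters of 10 or more sites contained 986 sites, 76.1% of the total, while 30 clusters held only 1 or 2 sites and 42 sites together. Neighbouring sites lay 1 bp apart in 295 cases, as the cytosines of both strands of a CpG do. Their means differed by a median of 2.39 percentage points. In a run of more than 2 such positions every step was counted, so not every case is a single CpG. Between the first and last site of 91 clusters lay 592 further measured sites, of which 306 were at 95% or more and 286 under 60%. In 34 clusters a site under 20% lay within 2 kb.

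Each cluster was placed relative to genes by the nearest site that the deposited table assigns to a gene, since no annotation of the same build was used. Such a site lay within 2 kb of 26 clusters and within 100 kb of 97, whereas 31 clusters had none within 100 kb. At 20 of the 26 clusters the gene sites were less methylated on average than the cluster. The cluster sites were chosen by a high level and the gene sites were not, so this count follows in part from the selection. It was not compared with a count for sites chosen without regard to level, and the single steps below are descriptions. The sharpest step was at HEYL, a transcriptional repressor downstream of Notch. Its 3 sites, 357 bp or more from the cluster at chr3:106442386-106442389, averaged 6.22% while the cluster averaged 73.1%. At ADRA2A, the alpha-2A adrenergic receptor gene, 46 sites averaged 27.03% and began 10 bp from a cluster of 62.9% (chr26:31590002-31590061). At FAM193A, picked after its values were seen, the order was the opposite, with 97.5% over 7 gene sites and 90.7% in the cluster at chr6:116020890-116020980. Ribosomal RNA genes flanked several clusters. Sites named RF00001, the family of the 5S ribosomal RNA, lay 11 bp from the cluster at chr25:9030-9462, 40 bp from chr20:112311-112360 and 204 bp from chr21:33002594-33002595. The last of these is a pair of sites at 91.9% that borders the chromosome 21 island left out above. Sites named RF00002, another ribosomal RNA family, lay within 2 kb of 4 clusters on chromosome 27. Those 4 clusters held 8 sites with a mean of 69.0% inside a CpG island whose 1223 sites averaged 20.9%. In a similar way the 16-site cluster at chr18:59225483-59225848 averaged 72.9% within an island of 158 sites that averaged 25.8%. Here too only the cluster sites were selected by level, so their higher mean within these islands follows from the selection.

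The first bases of some chromosomes held a large share of the sites. Within 300 kb of the start of the coordinates lay 10 of the 128 clusters. They held 275 sites, 21.2% of the cluster sites, compared with 0.597% of all autosomal sites in that range. This share was 6.72% among dense sites without a gene at any level, 1.04% among the 3464 equally dense and equally methylated sites with a gene, and 1.57% among the 24786 methylated sites without a gene that were not dense. The bound of 300 kb was chosen after the positions were seen. With 100 kb the cluster sites made up 18.4% and all autosomal sites 0.266%, and with 1000 kb they made up 21.2% and 1.89%. At the other end, the last 5 Mb before the last measured site held 61 clusters (47.7%) and 42.4% of the sites, beside 35.6% of autosomal sites, 41.7% of the dense methylated gene sites and 45.7% of the sparse methylated sites without a gene.

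The largest cluster lay on chromosome 9 at chr9:44296-44945, with 80 sites over 650 bp and no gene site within 100 kb. Its mean level was 86.5, 85.9, 85.5 and 86.2% in the CON_noP libraries, 86.0, 86.4, 85.3 and 86.0% in CON_P, 85.4, 87.0, 85.4 and 86.8% in MET_noP, and 86.1, 85.5, 86.6 and 86.0% in MET_P. All groups overlapped, and the SD over the 16 libraries was 0.526 percentage points, the smallest of the 54 clusters with 10 or more sites. The sites within it differed far more than the libraries did. Their means ran from 62.0% to 94.7%, and the same sites were low in every group, as in the plot of the site levels along this cluster. A further 23 sites inside the same stretch did not meet the level criterion and averaged 77.6%.

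**Figure D1:**
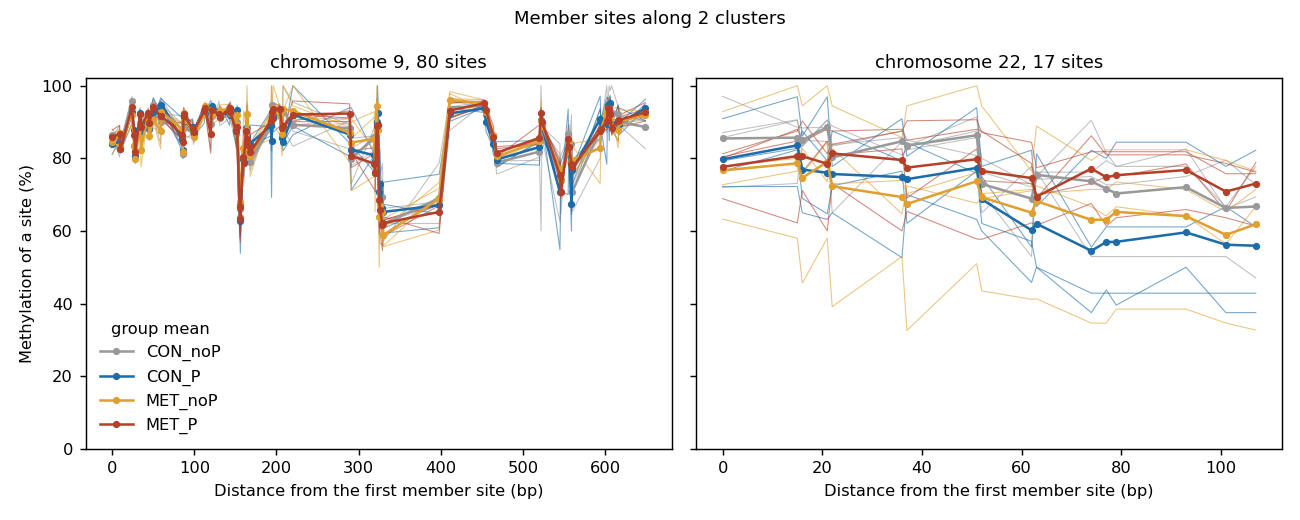
Methylation level of each site (y axis, %) against its distance from the first site of the cluster (x axis, bp) for the largest cluster (chromosome 9, left) and for the cluster with the largest SD over libraries (chromosome 22, right). Thin lines are the 16 libraries and thick lines with points the 4 group means. On chromosome 9 the libraries lie on top of each other over a shape with site means from 62.0% to 94.7%, whereas on chromosome 22 the libraries lie far apart, and the lines of some cross.

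The other clusters near the chromosome starts had similar levels. Chromosome 29 carried one of 32 sites at chr29:21876-22003 (84.6%, SD over libraries 1.81 percentage points) and one of 27 sites at chr29:28546-28775 (84.2%, SD 1.21). Chromosome 23 carried one of 18 sites at chr23:11505-11735 (82.1%, SD 1.29) and one of 19 sites at chr23:43246-43391 (77.8%, SD 4.68). The remaining ones were chr25:9030-9462 (40 sites, 83.3%, SD 3.43), chr19:25153-25323 (23 sites, libraries from 76.5 to 82.9%, SD 1.86), chr12:126834-126959 (15 sites, 81.9%, SD 3.09), chr2:213000-213061 (13 sites, 79.3%, SD 1.75) and chr20:112311-112360 (8 sites, 75.5%, SD 2.10). In the cluster on chromosome 25, which begins 43 bp after the first measured site, the 16 libraries ranged from 74.98% in library 30 (CON_P) to 87.5% in library 18 (CON_P), and all groups overlapped. The 5 RF00001 sites beside it averaged 78.6% and ran from 48.9% to 95.4%.

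Clusters near the chromosome starts varied little between libraries. Among clusters of 10 or more sites, the median SD over the 16 libraries was 1.81 percentage points for the 9 clusters within 300 kb of a start (range 0.526 to 4.68) and 4.54 for the 45 elsewhere (range 1.10 to 12.2). Of 14 clusters with an SD under 2, 6 lay near a start, and of 9 with an SD over 9 none did. Since the spread falls with the level, the same comparison was made at 75% to under 88%, the range of the former clusters, where the medians were 1.81 (n = 9) and 4.54 (n = 19). When each library was left out in turn, the median near the starts was 1.64 to 1.86 and elsewhere 4.11 to 4.62. These bounds were also set after the values were seen, no test was made, and the clusters near the starts had more sites (median 23) than the others (median 15), whose part in the difference was not tested. The read depth of each cluster was not available either.

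**Figure D2:**
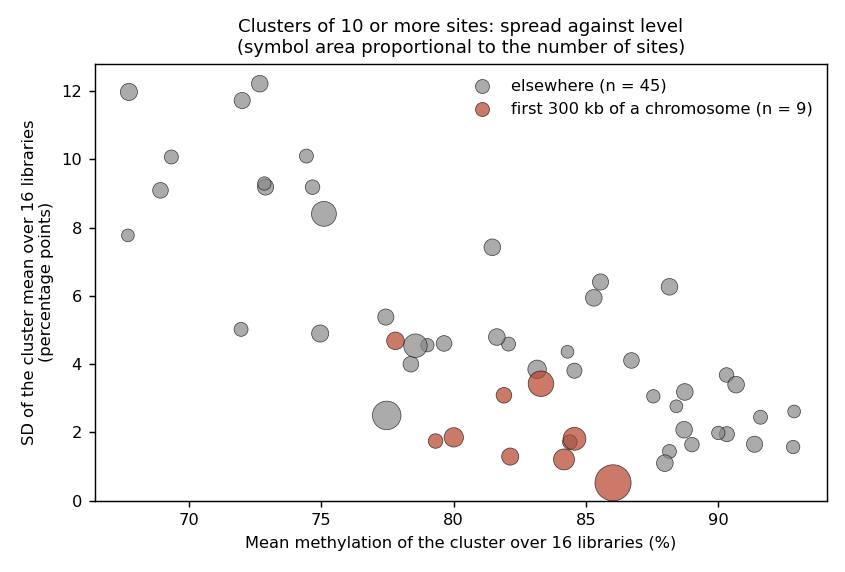
SD of the cluster mean over the 16 libraries (y axis, percentage points) against the mean level of the cluster (x axis, %) for the 54 clusters of 10 or more sites. Symbol area is proportional to the number of sites; the 9 clusters in the first 300 kb of a chromosome (red) have SDs of 0.526 to 4.68, and the 9 clusters with an SD over 9 all lie elsewhere and under 75%.

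Level and spread were related over all clusters of 10 or more sites. The median SD was 9.58 percentage points for the 4 clusters at 60 to under 70%, 5.02 for the 17 at 70 to under 80%, 3.09 for the 25 at 80 to under 90% and 2.22 for the 8 at 90 to under 95%. The highest means belonged to small clusters near chromosome ends, chr24:60221140-60221145 (2 sites, 94.3%), chr23:51139858-51139888 (4 sites, 94.1%) and chr16:79197500-79197668 (7 sites, 93.8%). The nearest gene sites were those of RNF152, of GMDS, an enzyme of GDP-fucose synthesis, and of KIF14, a mitotic kinesin, 28473 to 89815 bp away. The lowest means belonged to single sites, at chr18:63496809 (60.1%), chr4:118343961 (60.4%) and chr21:21162584 (60.5%). The first lay 148 bp from sites of the zinc finger gene ZNF787, and the third 2542 bp from sites of MESP1, a transcription factor of early mesoderm.

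Other large clusters lay within chromosomes. The cluster at chr5:26561938-26562563 held 50 sites. It lay between MAP3K12, a stress kinase gene with a site 30691 bp to the left, and SP1, a transcription factor gene 80003 bp to the right. Its level was 76.0 to 78.6% in CON_noP, 72.7 to 80.8% in CON_P, 75.5 to 79.2% in MET_noP and 76.6 to 81.3% in MET_P. The cluster at chr3:110702528-110702728 held 38 sites, 7533 bp from TMEM35B and 72581 bp from DLGAP3, a scaffold gene of the synapse. Its CON_noP libraries were at 83.6, 55.3, 76.4 and 71.2%, and library 16 gave the low value. The MET_noP libraries of the same cluster were at 91.4, 67.8, 79.3 and 83.4%, and its SD over all libraries was 8.40 percentage points. The cluster at chr25:41315413-41315593 held 34 sites with a mean of 78.6% and lay 77241 bp from TMEM184A. Its highest libraries were 14 and 26, both CON_P, at 86.5% each, and its lowest was library 12 (CON_noP) at 72.6%.

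The 9 clusters with an SD over 9 percentage points were all at 67.7 to 74.7%. The largest SD was 12.2 at chr22:57902532-57902639, 17 sites in 108 bp and 44411 bp from SLC6A6, the taurine transporter gene. Its libraries were at 77.6, 70.6, 80.5 and 81.3% in CON_noP, 84.2, 54.4, 59.2 and 72.6% in CON_P, 70, 88.5, 43.5 and 73.4% in MET_noP, and 83.6, 76.7, 82.8 and 63.7% in MET_P. The extremes, 43.5% in library 25 and 88.5% in library 17, were both in MET_noP, and the spread was within the groups. The SD was 11.97 at chr10:18054613-18054708, 18 sites with no gene site within 100 kb, where CON_P held 51.5, 78.0, 51.4 and 79.4%. It was 11.7 at chr23:50302064-50302136, 16 sites lying 24910 bp from SLC22A23, where MET_noP held 62.6, 92.3, 50.1 and 72.1%. The other 6 clusters included chr7:93037569-93037717, 14850 bp from NR2F1, a nuclear receptor gene, and chr27:41430983-41431161, 46720 bp from THRB, the thyroid hormone receptor beta gene.

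The same libraries recurred at the ends of these ranges. Library 25 (MET_noP) was lowest in 4 of the 9 clusters and library 16 (CON_noP) in 3, with mean deviations of -12.2 and -12.9 percentage points from the cluster means. Library 15 (MET_P) was above the cluster mean in all 9, by 3.16 to 15.9 points. Over all 54 clusters of 10 or more sites, library 16 was lowest in 10 and library 27 (MET_P) highest in 9. The low level of library 16 was not particular to the clusters. It was the lowest library over all measured sites (61.3%) and over the dense methylated sites with a gene (75.2%). Over the sparse methylated sites without a gene it was at 81.6%, and library 26 (CON_P) was lowest at 81.1%. The number of clusters with an SD over 9 fell to 6 without library 16 and stayed between 7 and 9 when any other library was left out.

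The mean over all 1296 sites ranged from 77.6% in library 16 (CON_noP) to 83.6% in library 15 (MET_P). By group it was 81.4, 77.6, 81.3 and 80.6% in CON_noP (80.2 ± 1.79, mean ± SD, n = 4), 82.2, 81.9, 79.6 and 80.3% in CON_P (81.0 ± 1.26), 82.5, 81.2, 80.7 and 82.6% in MET_noP (81.7 ± 0.988) and 83.6, 80.6, 82.4 and 81.1% in MET_P (81.9 ± 1.37). All groups overlapped. CON_P was 0.775 percentage points above CON_noP, MET_P 0.169 above MET_noP, MET_P 0.923 above CON_P and MET_noP 1.53 above CON_noP. Each comparison of outcome shares a group with each comparison of diet, so values of these kinds do not support each other. The comparisons of outcome share no group with each other, and neither do those of diet. The order of the CON groups rested on library 16, since without it CON_P was 0.10 below CON_noP, and MET_noP was then 0.654 above CON_noP. MET_P was 0.387 below MET_noP without library 15. Relative to all other autosomal sites of the same level, the differences were 0.350, -0.368, -0.199 and 0.519 points in the order given, so that MET_P was the lower group in both of its comparisons.

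**Figure D3:**
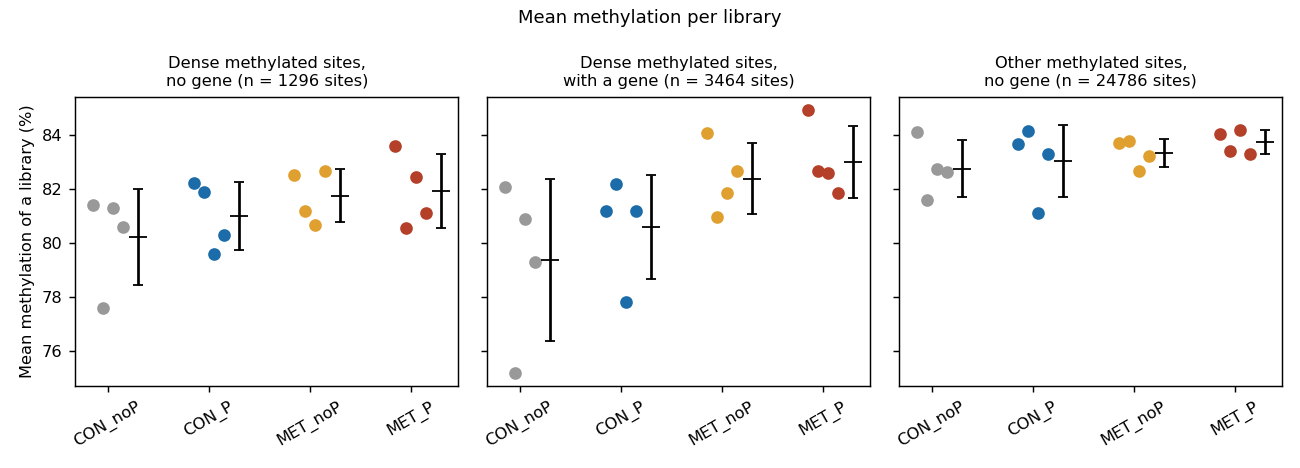
Mean methylation of each library (y axis, %, not starting at 0) in the 4 groups for the 1296 dense methylated sites without a gene (left), the 3464 dense methylated sites with a gene (middle) and the 24786 other methylated sites without a gene (right). Points are libraries, and bars beside them the mean ± SD of 4 libraries. The groups overlap in all panels, and the lowest CON_noP point is library 16 on the left (77.6%), in the middle (75.2%) and on the right (81.6%).

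The dense methylated sites with a gene showed differences of the same sign and larger size, at 1.23, 0.621, 2.41 and 3.02 percentage points in the same order. The sparse methylated sites without a gene differed by 0.292, 0.401, 0.690 and 0.580 points. The median SD of a single site over the 16 libraries was 6.89 points in the clusters, 8.25 for dense sites with a gene and 7.03 for the sparse sites. Within the clusters it was 4.15 points for the 275 sites near chromosome starts and 7.78 for the other 1021.

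The outcome of pregnancy was first compared in cows on the control diet. Each percentage was turned into a log ratio, M = log2((percent + 1)/(100 - percent + 1)), and tested with limma over all 199395 sites and over all 26420 regions of at least 3 sites, built in the same way over the whole table. Between CON_P and CON_noP no cluster site and no cluster passed an adjusted p of 0.05, where 0% of all sites and 0% of all regions passed, and the lowest adjusted p in limma was 0.705 for a site and 0.9999 for a cluster. An unadjusted p under 0.05 was reached by 42 of 1296 sites (3.24%) beside 3.93% of all sites, and 2 of 98 clusters (2.04%) beside 3.55% of all regions. The site count was 27 without library 16. CON_P was the higher group in 54 of 98 clusters (55.1%), compared with 57.3% of all regions, and the cluster differences ran from -16.5 to 14.8 percentage points with a median of 0.264, beside 0.409 for all regions. An adjusted p above the threshold does not show that the groups were alike.

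There was no overlap between CON_P and CON_noP in 2 of the 98 clusters (2.04%), beside 2.12% of all regions. At chr18:1860939-1861051, 7 sites that lay 16644 bp from CLEC18C, a C-type lectin gene, and 32709 bp from PDPR, a regulatory subunit gene of the pyruvate dehydrogenase phosphatase, the level was 67.6, 79.7, 78.1 and 79.9% in CON_noP and 93.3, 87.0, 85.0 and 80.9% in CON_P. The lowest CON_P library was above the highest CON_noP library, and the means were 10.2 points apart, with a difference in M of 1.01 ± 0.384 (SE) and a limma p of 0.0243, which was 0.9999 after adjustment. In the MET groups the order was the other way round, with 82.9 ± 6.59% in MET_noP and 76.5 ± 5.64% in MET_P (n = 4), and these overlapped. At chr3:106442386-106442389, the 3 sites beside HEYL, CON_noP held 76.8, 72.0, 81.7 and 74.5% and CON_P 68.6, 57.6, 70.3 and 70.2%. Here the order was reversed without overlap, with CON_P minus CON_noP at -9.59 points on average, a difference in M of -0.67 ± 0.305 and a limma p of 0.0517.

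In cows that received methionine, the comparison of MET_P with MET_noP again gave no cluster site and no cluster at an adjusted p of 0.05, as for all sites and regions (0% each). The lowest adjusted p in limma was 0.652 for a site and 0.926 for a cluster. An unadjusted p under 0.05 was reached by 57 sites (4.4%) beside 5.12% of all sites, and 4 clusters (4.08%) beside 5.31% of all regions. The cluster count was 1 without library 25 or 29 of MET_noP or library 15 or 19 of MET_P, 2 without library 27 or 31 of MET_P and 8 without library 17 of MET_noP. MET_P was higher in 48 of the 98 clusters (49%), compared with 51.9% of all regions, and the cluster differences ran from -10.9 to 11.4 points.

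MET_P and MET_noP did not overlap in 2 of the 98 clusters (2.04%), beside 3.24% of all regions. Both were highly methylated, and the gaps were small. At chr5:118781306-118781363 (9 sites, no gene site within 100 kb) MET_noP held 90.2, 87.0, 89.4 and 91.7% and MET_P 91.8, 93.9, 93.1 and 92.3%. At chr25:1128155-1128233 (17 sites, 1236 bp from CCDC154) MET_noP held 91.7, 92.1, 91.1 and 88.5% and MET_P 94.8, 94.3, 92.2 and 92.5%. MET_P was higher by 3.23 and 2.57 points, the limma p was 0.0589 for the first, and neither passed after adjustment.

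The diet was then compared among cows that became pregnant. Between MET_P and CON_P no cluster site and no cluster passed the adjusted threshold, again beside 0% of all sites and regions, with a lowest adjusted p in limma of 0.499 for a site and 0.753 for a cluster. Without adjustment, 64 sites (4.94%) had a p under 0.05 beside 5.83% of all sites, and 8 clusters (8.16%) beside 6.52% of all regions. Of the 8, 6 were higher in MET_P (6.12% of the clusters beside 3.98% of all regions). The site count was 97 without library 30 of CON_P and 34 without library 19 of MET_P. The cluster count was 13 without library 30, 4 without library 14 and 5 without library 26 of CON_P, and 5 without library 15 of MET_P. MET_P was higher in 56 clusters (57.1%), beside 54.2% of all regions.

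MET_P and CON_P did not overlap in 3 of the 98 clusters (3.06%), beside 3.71% of all regions. At chr27:41430983-41431161 (11 sites, 46720 bp from THRB) CON_P held 61.2, 73.5, 63.6 and 75.3% and MET_P 76.0, 76.3, 91.9 and 82.1%, a difference of 13.2 points (limma p 0.0263, adjusted p 0.753). The lowest MET_P library was above the highest CON_P library by less than 1 point. The cluster beside HEYL held 76.3, 77.3, 80.8 and 76.3% in MET_P, 11.02 points above CON_P (limma p 0.0184, adjusted p 0.753). The same CON_P libraries were low in both comparisons of this cluster. At chr22:58608248-58608373 (9 sites, 36203 bp from NUP210, a nuclear pore gene) CON_P held 85.9, 69.7, 78.4 and 75.6% and MET_P 66.6, 57.7, 66.8 and 69.0%. MET_P was the lower group there by 12.4 points (limma p 0.0216, adjusted p 0.753).

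Among cows that did not become pregnant, MET_noP and CON_noP were compared in the same way. No cluster site and no cluster passed, beside 0% of all sites and regions, and the lowest adjusted p in limma was 0.177 for a site and 0.739 for a cluster. Without adjustment, 54 sites (4.17%) had a p under 0.05 beside 5.13% of all sites, and 7 clusters (7.14%) beside 5.57% of all regions. Of the 7, 6 were higher in MET_noP (6.12% of the clusters beside 4.06% of all regions). Without library 16 of CON_noP these counts were 32 and 3, and the cluster count was 4 without library 13 or 29 of MET_noP. MET_noP was higher in 62 of 98 clusters, beside 59.5% of all regions.

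The largest number of clusters without overlap was found here, 6 of 98 (6.12%) beside 3.2% of all regions, and MET_noP was the higher group in 5 (5.1% beside 2.18% of all regions). At chr26:31590002-31590061, the 3 sites beside ADRA2A, CON_noP held 57.9, 35.3, 59.1 and 57.1% and MET_noP 77.0, 63.1, 77.9 and 64.8%, a difference of 18.4 points with a limma p of 0.0141 (adjusted p 0.828). Library 16 was far below the other CON_noP libraries there. At chr23:30503367-30503430 (4 sites, 68396 bp from NKAPL) CON_noP held 84.2, 90.1, 90.8 and 75.3% and MET_noP 98.4, 92.1, 96.5 and 95.2% (10.4 points, limma p 0.00333, adjusted p 0.739). At chr24:46701613-46701856 (17 sites, no gene site within 100 kb) CON_noP held 75.6, 77.1, 86.9 and 84.4% and MET_noP 88.8, 87.98, 88.1 and 91.9% (8.19 points, limma p 0.0183). At chr4:119315762-119315959, 9 sites between PTPRN2, a phosphatase-like gene of secretory granules, and NCAPG2, a condensin subunit gene, CON_noP held 92.8, 91.9, 93.7 and 93.8% and MET_noP 91.5, 86.7, 89.9 and 90.1%, a fall of 3.50 points that did not pass (limma p 0.0486, adjusted p 0.888).

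The remaining pair were clusters near chromosome starts, and their gaps were small in size. At chr23:11505-11735 CON_noP held 81.6, 80.6, 81.1 and 81.6% and MET_noP 83.8, 83.0, 82.2 and 83.8%, a difference of 1.97 points. At chr29:28546-28775 CON_noP held 82.1, 84.1, 83.7 and 83.5% and MET_noP 85.5, 85.3, 85.4 and 84.6%, a difference of 1.86 points. MET_noP was the higher group in 9 of the 10 clusters near a start, beside 63.3% of the 98 clusters and 59.5% of all regions. MET_P was above CON_P in 8 of 10, beside 57.1% and 54.2%. The differences of these 10 ran from -0.19 to 5.59 and from -0.05 to 2.62 points, and the 10 were grouped after their positions were seen. All 10 were measured in the same libraries, so these are not counts of independent events. In both comparisons of pregnancy outcome, these 10 clusters differed by -2.28 to 1.64 points. No cluster was free of overlap in the same direction in both diet comparisons.

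**Figure D4:**
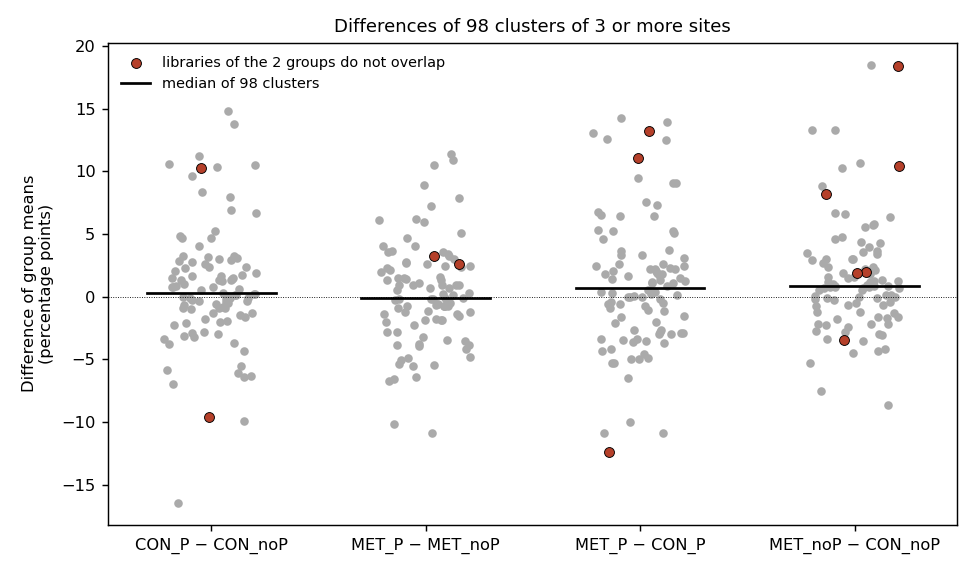
Difference of the group means (y axis, percentage points) of the 98 clusters of 3 or more sites in the 4 comparisons (x axis). Grey points are clusters with overlapping libraries, red points those without overlap (2, 2, 3 and 6), and black lines medians. Most points without overlap lie inside the range of the grey points.

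**Figure D5:**
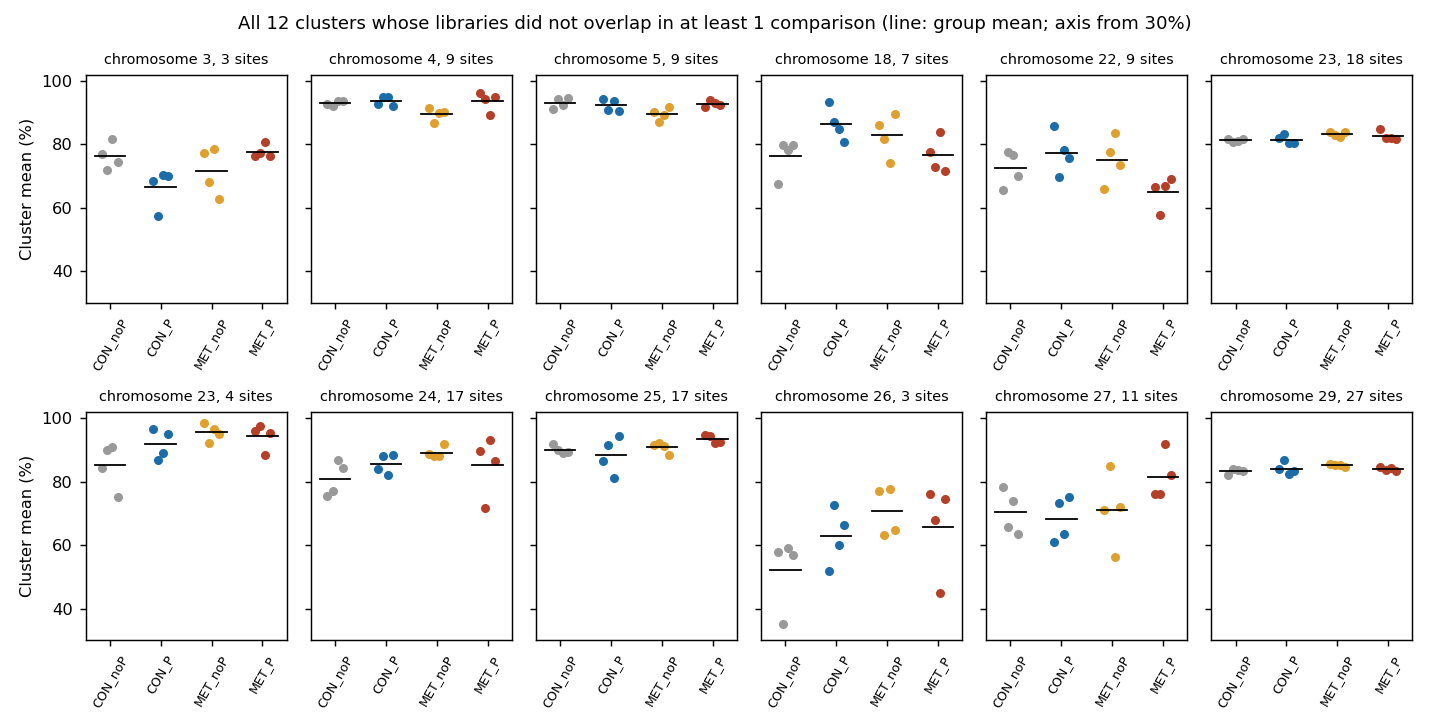
Mean level of each library (y axis, %, from 30%) in the 12 clusters whose libraries did not overlap in at least 1 comparison, with lines at the group means of 4 libraries. In the cluster beside ADRA2A (chromosome 26) the lowest CON_noP point is library 16 at 35.3%, and in the clusters of 18 sites on chromosome 23 and 27 sites on chromosome 29 all libraries lie within a few points.

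Whether the difference between cows with and without pregnancy depended on the diet was tested as the interaction over all 16 libraries. No cluster site and no cluster passed, beside 0.001% of all sites and 0.00379% of all regions, and the lowest adjusted p in limma was 0.838 for a site and 0.891 for a cluster. An unadjusted p under 0.05 was reached by 62 sites (4.78%) beside 5.25% of all sites, and 3 clusters (3.06%) beside 5.47% of all regions. The site count was 40 without library 19, and the cluster count was 5 without library 12 or 27 and 7 without library 17. The lowest p belonged to chr18:1860939-1861051, where the outcome difference was 16.6 points lower in MET than in CON (limma p 0.00921), and to the cluster beside HEYL, where it was 15.5 points higher (limma p 0.0169). The adjusted p was 0.891 for both.

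Some of the single sites with the largest gaps had close neighbours without them. At chromosome 13, position 78916697, CON_noP held 58.3, 29.4, 51.3 and 51.2% and CON_P 76.5, 70, 70.6 and 88% (limma p 0.00758, adjusted p 1). The adjacent position 78916696 had the opposite order, with 64.3% in CON_noP and 55.9% in CON_P. Next to it, positions 78916715 and 78916714 formed another such pair, with 51.5% and 77.7% at the former and 65.8% and 54.1% at the latter. At chromosome 8, position 112339494, MET_noP held 91.7, 90.9, 100 and 81.0% and MET_P 47.1, 37.8, 47.6 and 71.4%, with MET_P minus MET_noP at -39.9 points (limma p 0.00229, adjusted p 0.761). Sites 2 and 15 bp from it were at 97.8 to 98.9% in both groups. Inside the 50-site cluster on chromosome 5, position 26562020 held 83.4, 89.7, 86.9 and 84.7% in MET_P, 77.8, 43.0, 59.8 and 74.6% in MET_noP and 81.3, 62.9, 54.7 and 54.5% in CON_P. MET_P was 22.4 points above MET_noP and 22.8 above CON_P, with adjusted p of 0.890 and 0.827 in limma. At this position CON_noP averaged 72.7% (57.6 to 88.6%) and overlapped MET_P. The site 10 bp before it was at 85.2 to 87.0% in all groups. The site 4 bp before it was at 78.5% in MET_P, 78.0% in MET_noP, 70.4% in CON_P and 78.5% in CON_noP. The site 22 bp after it, which is not in the cluster, was at 46.0% in MET_P, 32.0% in MET_noP and 38.3% in CON_P. MET_P was the highest of MET_P, MET_noP and CON_P at both, and at the sites 21 and 25 bp after it. It was not the highest at the sites 26 bp before (94.0%, MET_noP 94.3%) and 26 bp after (30.99%, CON_P 31.05%).

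At chromosome 3, position 110702586, CON_noP held 85.0, 47.6, 76.6 and 70.2% and MET_noP 96.8, 94.1, 85.7 and 94.4% (limma p 0.00436, adjusted p 0.906), and the 6 sites within 22 bp were also higher in MET_noP on average. The first site of the cluster near NUP210, chromosome 22 position 58608248, was at 54.8 ± 17.5% in CON_noP and 77.3 ± 8.64% in CON_P (n = 4, limma p 0.0354), the next site, 16 bp on, at 63.1% and 63.2%, and the site 22 bp on at 80.8% and 90.6%. At chromosome 27, position 41431075, in the cluster near THRB, CON_P averaged 59.3 ± 10.7% and MET_P 81.9 ± 9.15% (n = 4, limma p 0.0126). At chromosome 9, position 101250481, CON_noP averaged 53.8 ± 12.01% and MET_noP 76.3 ± 4.36% (n = 4, limma p 0.0129), and the sites 16 and 24 bp before it had the same order, with 61.3% against 76.3% and 47.2% against 66.7%, and the sites 8, 12 and 26 bp after it the opposite order. None of these passed after adjustment.

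The sites without overlap numbered 24 (1.85%), 36 (2.78%), 48 (3.7%) and 45 (3.47%) of 1296 for CON_P against CON_noP, MET_P against MET_noP, MET_P against CON_P and MET_noP against CON_noP, beside 1.99, 2.9, 3.09 and 2.75% of all sites. MET_noP was higher in 775 of the 1296 sites (59.8%), beside 57.3% of all sites, MET_P was above CON_P in 741 (57.2% beside 53.6%), CON_P above CON_noP in 707 (54.6% beside 55.4%) and MET_P above MET_noP in 665 (51.3% beside 51.8%). Sites of a cluster are read together, and these counts are not counts of independent events.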

How the data were processed

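RRBS was measured in 16 libraries of bovine endometrial cells, 4 per group. The authors used Trim Galore for trimming, Bismark for alignment to the ARS-UCD1.2 build, SAMtools to merge the runs of a library and SeqMonk for quantification. The deposited values are percent methylation per cytosine position and library, kept where all libraries had a valid value above zero. Read counts are not used here, so the depth of each site is unknown, no interval is given, and the authors' logistic regression was replaced. The paper reports the most raw reads and CpG calls on average in MET_P. In the clusters the median SD of a single site within a group was 4.96 points in MET_P, 5.76 in MET_noP, 6.01 in CON_noP and 6.80 in CON_P. The part of depth in the comparisons with MET_P was not tested. Reads of near-identical repeat copies can be lost or placed at 1 copy, so levels near chromosome starts and ribosomal RNA sites are uncertain.

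Columns were assigned to groups by the header. Sites were selected and joined as described, M values (offset 1 percentage point) tested with limma 3.58.1 in R 4.3.3 (no trend, 8 libraries per comparison, Benjamini-Hochberg over all sites or regions, threshold 0.05), and summaries made in Python 3.11.15. The test code was run on simulated data with independent noise and large shifts, unlike the sites read together and the mostly smaller differences here. Gene names come from the deposited gene column, with distances to the nearest named site. Clusters and sites were named by number of sites, level, SD and lack of overlap, and those near chromosome starts, beside genes or ribosomal RNA sites, or with an SD over 9 after their values were seen. The sites, lists and tests were chosen with earlier results of these data known. Alternatives covered the transform, offset, trend, centring, level, density, joining distance, region size, strand merging, models and each library left out.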

Additional observations from a re-analysis of the deposited data

Results flagged for a closer look

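In 58 clusters and in the mean over all sites of the clusters, 236 group values were checked for a library far from the other 3 of its group, and 9 were found, where chance alone flags about 1 in 20 groups. The 58 were the 26 named by the rule and 32 further ones that lie at a chromosome start, have 10 or more sites and an SD over 9 points, or have a gene site within 2 kb. Over all clusters there were 27 of 512 (5.27%). At chr18:63496809, beside ZNF787, library 29 was at 18.2% and the other MET_noP libraries at 71.4 to 75%, a gap of 0.937 of the range. At chr26:31590002-31590061, beside ADRA2A, library 16 was at 35.3% and the other CON_noP libraries at 57.1 to 59.1% (0.917). At chr3:106442386-106442389, beside HEYL, library 18 was at 57.6% and the other CON_P libraries at 68.6 to 70.3% (0.866). At chr18:1860939-1861051 library 12 was at 67.6% and the other CON_noP libraries at 78.1 to 79.9% (0.854). At chr29:28546-28775 library 29 was at 84.6% and the other MET_noP libraries at 85.3 to 85.5% (0.853), so that the gap was under 1 percentage point. The latter 4 clusters are among those without overlap described above. At chr7:93037569-93037717, near NR2F1, library 25 was at 52.2% and the other MET_noP libraries at 74.5 to 77.4% (0.886). At chr21:33002594-33002595 library 12 was at 83.9% and the other CON_noP libraries at 91.99 to 93.4% (0.853). At chr23:11505-11735 library 15 was at 84.8% and the other MET_P libraries at 81.6 to 82.1% (0.843). At chr27:6224497, in the chromosome 27 island, library 16 was at 55.8% and the other CON_noP libraries at 73.3 to 76.7% (0.838). Their causes were not tested.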

How the results depend on the processing

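No paired analysis was possible because the columns carry library numbers and not the replicate numbers of the labels. Sets of 4 consecutive library numbers hold 1 library of each group, which the labels do not describe as a pairing. With these sets as a block, no site or cluster passed, as without it. The count of 0 sites past the threshold became 1 with an offset of 0.1 for MET_P against CON_P (chromosome 8, position 111575040, adjusted p 0.0189 in limma, 0.499 with offset 1) and 1 for MET_noP against CON_noP (chromosome 12, position 86716246, adjusted p 0.00228, 0.177 with offset 1). Both were picked after their values were seen. The second group was at 100% in all its libraries and the first averaged 90.6 and 92.7%, where the offset sets the log ratio. The other 226 recomputed main values stayed within the threshold or the spread between libraries, although the mean differences changed sign as given above, and no named cluster changed direction.

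Unadjusted counts moved by over 1.5 times in 33 cases. Beyond those given for single libraries, the site count was 101 (MET_P against CON_P) and 85 (MET_noP against CON_noP) on untransformed percentages, and 25 for CON_P against CON_noP with sites of 10 to 90% only. Cluster counts for CON_P against CON_noP ran from 1 to 5, where 1 was without library 28, 5 without 24 and 4 without 18. For MET_P against MET_noP it was 2 with the block or with all libraries in 1 model. Leaving out 1 library moved the mean differences over -0.10 to 1.25, -0.39 to 0.62, 0.37 to 1.38 and 0.65 to 1.93 points in the order of the text. Without counts, a gap at a single site cannot be set against its reading error.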
